A study of Mus musculus with 35 samples.

Results

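The genes described here are 10 members of the NF-kB pathway, 4 subunit genes and 6 genes for inhibitors and regulators, followed across all 35 libraries of a study of mouse CD8 T cells. They were taken by gene symbol, as Nfkb1, Nfkb2, Rel, Relb, Nfkbia, Nfkbid, Nfkbie, Nfkbiz, Tnfaip3 and Bcl3, and all 10 were found among the 38924 genes of the count table. Rela, the other subunit gene, was not on the list and is given where it bears on a result.

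NF-kB is a family of dimeric transcription factors held in the cytoplasm of resting T cells by inhibitor proteins of the IkB family. Signals from the antigen receptor, or agents that act below it such as a phorbol ester with a calcium ionophore, lead to the destruction of the inhibitors, and the dimers enter the nucleus. Among their targets are genes for the inhibitors and for the ubiquitin-editing enzyme made from Tnfaip3, which restrain the signal again, so messenger levels of these genes are widely read as a record of recent NF-kB activity.

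All libraries came from C57BL/6 mice, from CD8 T cells gated as CD3e+CD8+CD44hiCD62Llo, which marks cells that have met antigen. The 7 groups were stimulated brain cells of aged females (n = 5) and aged males (n = 4), unstimulated brain cells of aged females (n = 5), aged males (n = 6) and young males (n = 5), and stimulated and unstimulated spleen cells of aged males (n = 5 each). Stimulation was 2 h with PMA and ionomycin. The labels give ages as young or aged only, and whether unstimulated cells were held for the same time is not stated. Replicates are not said to be separate animals, so each p-value refers to the scatter among these samples, part or all of which may be technical. The sample titles fall into 3 sets by their format and running numbers, an inferred split: 1 set is all of unstimulated male brain, 1 is unstimulated female brain with the stimulated male and 3 of the stimulated female libraries, and 1 is the remaining 2 stimulated female libraries with all of spleen. Stimulation in spleen and age are compared within a set, whereas such a set cannot be told apart from the contrasts of brain with spleen, of sex and of stimulation in male brain.

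Library totals ran from 1156594 to 24973886 counts. Mitochondrial genes took 38.5% to 69.7% of counts in stimulated brain libraries, against 8.28% to 20.8% in all others, and 2271 to 6769 genes had a count there, against 6456 to 15174 in all others. All 8 CD8 T cell markers on a marker list were present in every group. Their summed level was 702 to 2326 CPM in stimulated female brain and 183 to 557 CPM in stimulated male brain, and 1283 to 5458 CPM in the other groups. Levels below are CPM, counts scaled to a common library size with TMM over all 35 libraries, unless they are called TPM, transcript shares that also correct for gene length. In bulk RNA, fewer cells with a transcript and less of it per cell cannot be told apart.

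Promoters of the members are shown because many of them moved together and because the family binds a short element, the kappa B site. The RefSeq sequences held 12 promoter windows of 300 bases (250 before to 50 after an annotated start, GRCm38.p6) for 7 of the 10 members. The kappa B consensus, a motif of 10 bases read on both strands, was found in 9 of these 12 windows and in at least 1 window of all 7 genes, against 8.46% of all 32851 windows and 9.55% of 27025 genes with at least 1 window. The 9 windows include 2 of Nfkb2 that overlap and share 1 match, GGGACTTTCC, which lies 11 bases after one start and 225 before the other and so counts in both. A match in either strand's letters is a description and shows no binding. In the sequences below, written on the strand of the gene, capitals mark every base covered by a match. The first 4 genes had the higher transcript in stimulated spleen by the widest margins among those with a window, and Bcl3 is shown as the member that did not pass the test there.

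Tnfaip3, minus strand, chr10:19015361-19015660: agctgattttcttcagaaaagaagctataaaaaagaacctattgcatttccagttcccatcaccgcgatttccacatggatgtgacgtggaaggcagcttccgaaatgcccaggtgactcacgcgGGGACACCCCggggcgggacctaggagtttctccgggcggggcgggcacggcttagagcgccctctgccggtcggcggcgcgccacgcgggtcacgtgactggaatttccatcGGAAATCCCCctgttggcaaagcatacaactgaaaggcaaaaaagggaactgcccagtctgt

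Nfkbia, minus strand, chr12:55492598-55492897: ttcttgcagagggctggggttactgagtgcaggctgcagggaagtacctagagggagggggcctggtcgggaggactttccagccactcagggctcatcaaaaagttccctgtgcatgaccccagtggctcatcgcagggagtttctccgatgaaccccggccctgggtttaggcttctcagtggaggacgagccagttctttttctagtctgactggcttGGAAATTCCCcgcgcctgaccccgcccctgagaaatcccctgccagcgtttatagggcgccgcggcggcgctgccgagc

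Nfkbid, plus strand, chr7:30422156-30422455: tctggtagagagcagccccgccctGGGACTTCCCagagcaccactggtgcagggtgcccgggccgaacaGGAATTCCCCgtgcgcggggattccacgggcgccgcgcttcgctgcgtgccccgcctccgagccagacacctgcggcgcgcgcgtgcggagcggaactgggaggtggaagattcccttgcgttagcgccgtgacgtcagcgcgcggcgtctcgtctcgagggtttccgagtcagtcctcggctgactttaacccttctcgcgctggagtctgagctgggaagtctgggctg

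Rel, minus strand, chr11:23770920-23771219: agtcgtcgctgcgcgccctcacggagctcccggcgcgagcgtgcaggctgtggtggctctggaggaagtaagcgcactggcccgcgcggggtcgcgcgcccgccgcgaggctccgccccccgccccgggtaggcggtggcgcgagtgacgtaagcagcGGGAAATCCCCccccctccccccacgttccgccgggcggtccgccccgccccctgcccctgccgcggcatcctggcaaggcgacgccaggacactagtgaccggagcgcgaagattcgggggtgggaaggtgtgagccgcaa

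Bcl3, minus strand, chr7:19822706-19823005: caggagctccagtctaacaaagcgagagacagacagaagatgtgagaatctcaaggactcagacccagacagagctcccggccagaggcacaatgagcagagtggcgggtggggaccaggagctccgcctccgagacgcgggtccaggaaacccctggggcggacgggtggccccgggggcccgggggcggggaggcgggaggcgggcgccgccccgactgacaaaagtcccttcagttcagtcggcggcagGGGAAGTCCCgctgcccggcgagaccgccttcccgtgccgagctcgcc

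The Tnfaip3 window held 2 matches, starting 125 and 12 bases before the start of transcription, GGGACACCCC on both strands and GGAAATCCCC as read on the strand shown. The Nfkbia window held GGAAATTCCC, 29 bases before the start. In the Rel window the matches GGGAAATCCC and GGAAATCCCC overlapped, at 92 and 91 bases before the start. The Nfkbid window held GGGACTTCCC at 226 and GGAATTCCCC at 181 bases before the start. The Bcl3 match, GGGAAGTCCC, lay 3 bases after the start, within the transcribed part.

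In stimulated spleen cells 9 of the 10 members rose, and none fell, against unstimulated spleen cells. The widest changes were in the feedback genes, with Nfkbid 127-fold, Nfkbiz 49.97-fold, Tnfaip3 45.7-fold and Nfkbia 24.5-fold higher, while among the subunit genes Rel was 17.6-fold higher and Nfkb1, Nfkb2 and Relb 2.16- to 3.22-fold. Bcl3 was the member that did not pass. Of all 11107 genes tested, 12.6% were called higher (1400 higher and 680 lower, edgeR quasi-likelihood test at an adjusted p of 0.05; with unscaled library totals 523 and 4377). The median log2 fold change was 3.13 over the 10 members and -0.07 over all genes tested. Nfkbid ranked 11 by fold change among all genes tested, Nfkbiz 33, Tnfaip3 35 and Nfkbia 55.

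Markers of other cell types also differed between the spleen groups. The 3 CD4 and regulatory T cell markers, all above 0 in both groups, summed to 70.99 to 141 CPM in stimulated and 14.3 to 30.01 CPM in unstimulated spleen, with no overlap. Of these Ctla4, which activated CD8 T cells express too, was at 63.9 to 117 CPM against 4.34 to 8.36 CPM, while Cd4 (4.51 to 15.3 CPM against 2.71 to 10.1 CPM) and Foxp3 (1.19 to 11.1 CPM against 4.41 to 14.3 CPM) overlapped. The 7 dendritic and antigen-presenting cell markers, all above 0 in both, summed to 142 to 302 CPM in stimulated and 91.1 to 158 CPM in unstimulated spleen, and the 6 B cell markers, all above 0 in both, to 166 to 357 CPM and 128 to 414 CPM. Microglia and macrophage markers summed to 50.8 to 83.0 CPM in stimulated spleen (8 of 12 above 0) and 99.4 to 143 CPM in unstimulated spleen (9 of 12), with no overlap and with Sall1 and Tmem119 at 0 in both. Their part in the changes of the members was not tested.

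Tnfaip3 encodes the ubiquitin-editing enzyme that shuts off signalling upstream of NF-kB (chromosome 10, 19000910 to 19015657 in GRCm38). It had 2794, 4063, 2551, 3045 and 3843 CPM in stimulated spleen cells, against 69.8, 64.3, 67.7, 76.6 and 71.0 CPM in unstimulated spleen cells. The groups lay far apart, and within each the values were tight. The log2 fold change was 5.51 ± 0.17 (SE, edgeR adjusted p = 4.7e-10).

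Nfkbia encodes IkB alpha, the classical cytoplasmic inhibitor (chromosome 12, 55489410 to 55492647). Its levels were 438, 579.6, 302, 361 and 702 CPM in stimulated spleen cells, against 19.2, 20.4, 19.5, 19.8 and 16.3 CPM in unstimulated spleen cells. All stimulated libraries were above all unstimulated ones, with a log2 fold change of 4.62 ± 0.24 (adjusted p = 4.2e-08). Nfkbie, which encodes the related inhibitor IkB epsilon (chromosome 17, 45555703 to 45563169), moved less. It had 52.4, 71.4, 31.6, 34.1 and 80.0 CPM in stimulated spleen cells, against 12.3, 14.4, 13.7, 10.7 and 9.40 CPM in unstimulated spleen cells, with no overlap and a log2 fold change of 2.13 ± 0.28 (adjusted p = 0.00019).

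Nfkbid and Nfkbiz encode nuclear IkB proteins that modify the output of NF-kB at its target genes (chromosome 7, 30421732 to 30428746, and chromosome 16, 55811375 to 55838899). Nfkbid had 556, 782, 287, 335 and 1160 CPM in stimulated spleen cells, against 3.63, 4.96, 5.64, 4.49 and 5.42 CPM in unstimulated spleen cells. It was low but present in every unstimulated library, at 56 to 116 counts, and its log2 fold change was 6.99 ± 0.43 (adjusted p = 2.7e-07). Nfkbiz had 765, 1023, 497, 608 and 1294 CPM in stimulated spleen cells, against 14.5, 13.7, 17.1, 16.9 and 20.01 CPM in unstimulated spleen cells. These groups did not overlap either, and the log2 fold change was 5.64 ± 0.28 (adjusted p = 3.3e-08). Bcl3, the third nuclear member (chromosome 7, 19808462 to 19822770), was scarce throughout. It had 4.65, 6.24, 3.88, 5.31 and 4.35 CPM in stimulated spleen cells and 2.53, 2.05, 3.10, 3.06 and 3.50 CPM in unstimulated spleen cells, values that did not overlap but gave a log2 fold change of 0.74 ± 0.32 that missed the threshold (adjusted p = 0.13).

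Among the subunits, Rel, which encodes the lymphoid subunit c-Rel (chromosome 11, 23736847 to 23770970), had 309, 369.6, 147, 212 and 622 CPM in stimulated spleen cells, against 13.5, 19.7, 14.5, 11.6 and 33.4 CPM in unstimulated spleen cells. The groups were apart, and the log2 fold change was 4.14 ± 0.44 (adjusted p = 4.7e-05). Nfkb1 and Nfkb2 encode the precursors that are processed to the DNA-binding partners of the Rel proteins. Nfkb1 (chromosome 3, 135584655 to 135691547) had 193, 239, 126, 128 and 367 CPM in stimulated spleen cells, against 86.0, 97.8, 94.2, 111 and 89.4 CPM in unstimulated spleen cells, a log2 fold change of 1.11 ± 0.26 (adjusted p = 0.010). Nfkb2 (chromosome 19, 46304320 to 46312385), of the non-canonical arm, had 95.3, 102, 39.2, 43.8 and 111 CPM in stimulated spleen cells, against 30.02, 22.3, 25.03, 17.1 and 24.6 CPM in unstimulated spleen cells, a log2 fold change of 1.69 ± 0.30 (adjusted p = 0.0016). Both pairs of groups were separate in CPM, though in Nfkb1 by little, and both overlapped in TPM. Relb, the partner of the processed Nfkb2 product (chromosome 7, 19606217 to 19629438), had 24.7, 34.98, 11.6, 15.8 and 34.8 CPM in stimulated spleen cells and 8.56, 12.4, 8.43, 8.05 and 13.9 CPM in unstimulated spleen cells. Its groups overlapped, with a log2 fold change of 1.22 ± 0.32 (adjusted p = 0.017). Rela, which encodes p65, changed by 0.70 ± 0.23 on the log2 scale (adjusted p = 0.048), with 71.2 ± 28.1 CPM in stimulated and 43.0 ± 2.39 CPM in unstimulated spleen cells (SD, n = 5 each).

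The calls of the smaller of these changes rest on the scaling between libraries, as does the size of all of them. With unscaled library totals the median over all genes moved to -0.73, and the log2 fold changes of Nfkb1, Relb and Bcl3 were 0.40 (adjusted p = 0.15), 0.53 (adjusted p = 0.15) and 0.09 (adjusted p = 0.85), so that 7 members were called. The widest changes were still called, at log2 fold changes of 6.27 for Nfkbid, 4.94 for Nfkbiz, 4.83 for Tnfaip3 and 3.92 for Nfkbia. Relative to the median gene, Nfkb1 was higher by 1.18 with TMM and 1.13 with unscaled totals, and Tnfaip3 by 5.58 and 5.56. Relb also missed the threshold without unstimulated replicate 30 (log2 fold change 1.15, adjusted p = 0.051), unstimulated replicate 32 (1.15, adjusted p = 0.052) or stimulated replicate 37 (1.08, adjusted p = 0.053). A fit of all 35 libraries with 1 shared spread called Nfkbid, Nfkbiz, Tnfaip3 and Nfkbia only. Nfkb1, Nfkb2 and Bcl3 overlap other annotated genes in GENCODE M21, and the use of strand in counting is not given in the sources used here, so their counts may hold reads of those genes.

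**Figure D1:**
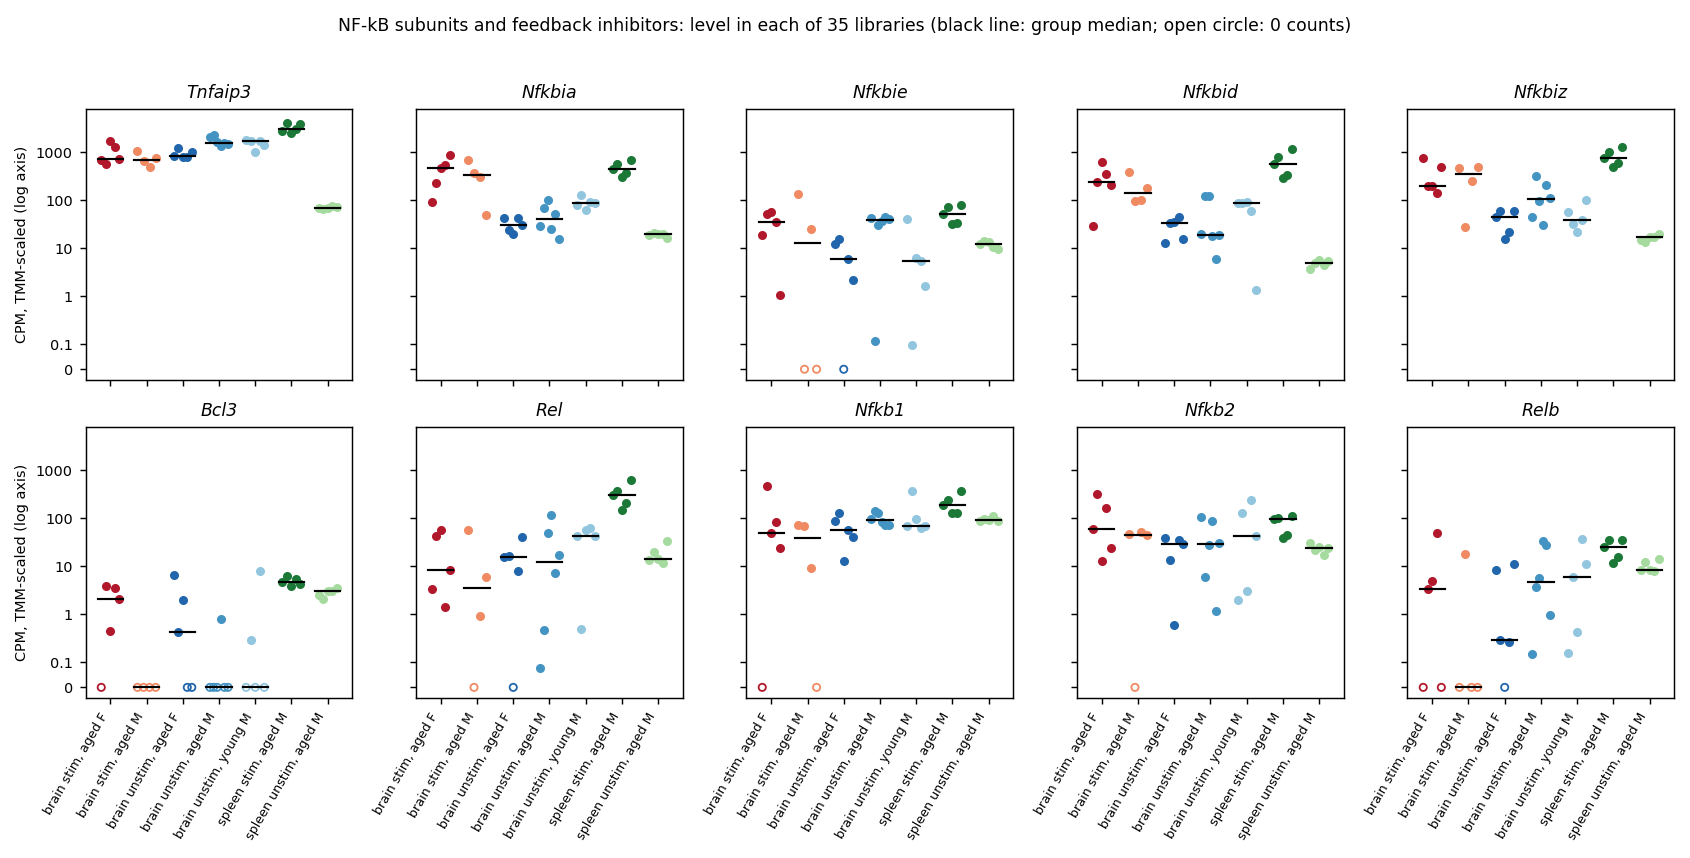
Level of each gene in each of the 35 libraries, in TMM-scaled CPM on a log axis, by group; black lines are group medians and open circles are libraries with 0 counts. Tnfaip3 sits between 490 and 4063 CPM everywhere except unstimulated spleen, where it is at 64.3 to 76.6 CPM, while Bcl3, Relb and Rel scatter widely and reach 0 in brain.

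The rest of the pathway moved unevenly in spleen. Of 21 other NF-kB target genes, 19 were tested and 14 rose, with none lower and a median log2 fold change of 2.80. Tnf rose by 6.71 ± 0.40 (adjusted p = 1.6e-07), Gadd45b by 6.67 ± 0.37 (adjusted p = 7.1e-08) and the chemokine gene Ccl4 by 6.66 ± 0.34 (adjusted p = 3.4e-08) on the log2 scale. Of 15 upstream kinases and adaptors 5 rose, among them Map3k14, the kinase of the non-canonical arm (log2 fold change 2.46 ± 0.33, adjusted p = 0.00023), Bcl10 (1.2 ± 0.27, adjusted p = 0.0071) and Tab3 (1.04 ± 0.24, adjusted p = 0.0093). Of 8 ubiquitin ligases and scaffolds, none passed in either direction in edgeR. Of 12 other brakes on the pathway 11 were tested, and 5 rose and 1 fell. Zc3h12a, an RNase that degrades inflammatory transcripts, rose by 2.95 ± 0.29 (adjusted p = 1.7e-05), Nfkbib, which encodes IkB beta, by 2.2 ± 0.29 (adjusted p = 0.00022) and N4bp1 by 0.74 ± 0.18 (adjusted p = 0.013). Usp18 was the lower one, at -1.21 ± 0.39 on the log2 scale (adjusted p = 0.049).

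In unstimulated brain cells of aged males 3 members were higher than in unstimulated spleen cells of aged males, and none lower: Tnfaip3 by 21.5-fold, Nfkbid by 9.08-fold and Nfkbiz by 7.16-fold. The classical inhibitor genes Nfkbia and Nfkbie and the 4 subunit genes did not pass the test. Of 11040 genes tested, 3.35% were called higher (370, with 444 lower, or 139 and 516 with unscaled totals), and the median log2 fold change was 0.92 over the members and 0.31 over all genes tested. The unstimulated spleen libraries are the same ones that served as the baseline for stimulation.

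Tnfaip3 was at 1366, 1583 and 2268 CPM (lowest, median and highest of 6) in unstimulated aged male brain, against 69.8, 64.3, 67.7, 76.6 and 71.0 CPM in unstimulated spleen cells. No brain library came near the spleen range, and the log2 fold change was 4.43 ± 0.18 (adjusted p = 1.9e-09). The difference was called in all 19 alternatives computed, and relative to the median gene it was 4.12 with TMM and 4.10 with unscaled totals. Nfkbiz was at 31.04, 105 and 318 CPM in brain, against 14.5, 13.7, 17.1, 16.9 and 20.01 CPM in spleen. The brain values spanned a wide range but stayed above spleen in CPM, with a log2 fold change of 2.84 ± 0.58 (adjusted p = 0.005), also called in all 19 alternatives. In TPM the Nfkbiz ranges overlapped, at 6.97 to 63.4 in brain and 5.39 to 7.60 in spleen.

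Nfkbid was at 5.97, 18.9 and 124 CPM in unstimulated aged male brain, against 3.63, 4.96, 5.64, 4.49 and 5.42 CPM in unstimulated spleen. In CPM the lowest brain library, replicate 11, was just above the spleen range, and brain replicates 8 and 9, with 122 and 124 CPM, stood above the other 4, which had 5.97 to 19.3 CPM. In TPM replicate 11 was at 2.78, below the 2.88 to 5.75 of spleen. The log2 fold change was 3.18 ± 0.87 (adjusted p = 0.034), and the call was lost in 8 of 19 alternatives. Without brain replicate 8 it was 2.73 (adjusted p = 0.056) and without replicate 9 it was 2.70 (adjusted p = 0.078). Without spleen replicate 30, 31, 32, 33 or 34 it was 3.08 to 3.24, with adjusted p = 0.10, 0.093, 0.083, 0.094 and 0.086 in turn, and with unscaled totals it was 2.54 (adjusted p = 0.12).

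The members that did not pass were of several kinds. Nfkbia was at 15.8, 40.8 and 99.5 CPM in unstimulated aged male brain, overlapping the 16.3 to 20.4 CPM of spleen, with a log2 fold change of 1.15 ± 0.58 (adjusted p = 0.37). Nfkb1 was the steadiest subunit gene in brain, with 73.6, 91.3 and 145 CPM against 86.0 to 111 CPM in spleen and a log2 fold change of -0.12 ± 0.30 (adjusted p = 0.91). Rel scattered most, with 0.0760 CPM in brain replicate 7 (2 counts), 0.470 CPM in replicate 8 (4 counts) and 117 CPM in replicate 10 (2459 counts), around the 11.6 to 33.4 CPM of spleen. Its log2 fold change of 0.62 ± 1.19 (adjusted p = 0.88) therefore has little precision. Nfkbie (1.24 ± 0.91, adjusted p = 0.59), Nfkb2 (0.68 ± 0.85, adjusted p = 0.79) and Relb (0.06 ± 1.10, adjusted p = 0.99) also overlapped between tissues. Bcl3 had 0 counts in 5 of 6 brain libraries and 0.808 CPM in replicate 10, against 2.05 to 3.50 CPM in spleen, and missed the threshold with all libraries (log2 fold change -4.43 ± 1.62, adjusted p = 0.14), though not without replicate 10 (adjusted p = 0.0038), where all remaining brain libraries are at 0, or with limma voom (-5.86, adjusted p = 0.0039).

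Markers of other cell types differed between these groups and within brain. The summed level of 12 microglia and macrophage markers was 9.31 to 464 CPM in unstimulated aged male brain and 99.4 to 143 CPM in unstimulated spleen, with 9 of 12 above 0 in each and Sall1 and Trem2 at 0 in both. The brain library with the least of it, replicate 7, at 9.31 CPM, had 2065 CPM of Tnfaip3, and replicate 9, with the most, had 1593 CPM. For Nfkbid the same libraries had 19.3 and 124 CPM. Brain replicates 8 and 9, the pair with 122 and 124 CPM of Nfkbid, also had the highest sums of the next 2 lists among the brain libraries. The 7 dendritic and antigen-presenting cell markers summed to 194 and 163 CPM in them and to 42.2 to 69.2 CPM in the other 4 brain libraries, against 91.1 to 158 CPM in spleen, with 6 of 7 above 0 in brain (Ciita at 0) and 7 of 7 in spleen. The 5 neutrophil and monocyte markers summed to 56.4 and 442 CPM in the same pair and to 0.607 to 7.13 CPM in the other 4 brain libraries, against 6.51 to 23.7 CPM in spleen, with 4 of 5 above 0 in each tissue and Ly6g at 0 in both. Summed B cell markers were at 0.380 to 28.0 CPM in brain and 128 to 414 CPM in spleen. The part of these cells in the difference of Nfkbid was not tested. Of the other pathway lists, 1 of 15 kinases and adaptors rose (Tab2, 1.35 ± 0.35, adjusted p = 0.026), 1 of 8 ubiquitin ligases and scaffolds fell, no other brake passed, and 1 of 19 tested target genes rose (Sod2, which encodes mitochondrial superoxide dismutase, 2.14 ± 0.61, adjusted p = 0.046).

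Set beside stimulated spleen cells of aged males, the unstimulated brain cells had less of 4 members and more of none. Of 9926 genes tested, 2.39% were called lower, and the median log2 fold change was -1.96 over the members and 0.36 over all genes. Tnfaip3 was the closest of the 4, with 1366, 1583 and 2268 CPM in unstimulated brain (lowest, median and highest) against 2794, 4063, 2551, 3045 and 3843 CPM in stimulated spleen. The groups did not overlap in CPM, with a log2 fold change of -1.03 ± 0.17 (adjusted p = 0.0031), a call lost only in the fit of all 35 libraries (-0.92, adjusted p = 0.30). Nfkbia (-3.41 ± 0.44, adjusted p = 0.00045), Nfkbid (-3.75 ± 0.70, adjusted p = 0.0065) and Nfkbiz (-2.76 ± 0.49, adjusted p = 0.005) were further below stimulated spleen, also with no overlap. The Nfkbid call was lost with limma voom (-4.57, adjusted p = 0.076) and without a filter on low counts (-3.63, adjusted p = 0.053). Rel was at 0.0760 to 117 CPM in brain and 147 to 622 CPM in stimulated spleen, which did not overlap but missed the threshold (-3.44 ± 1.22, adjusted p = 0.18); it passed with DESeq2 (-3.44, adjusted p = 0.014) and without brain replicate 10 (-4.54, adjusted p = 0.038). Bcl3 missed it in edgeR (adjusted p = 0.13) and was called lower with DESeq2 (-5.19, adjusted p = 0.034), with limma voom (-6.63, adjusted p = 0.0041) and without brain replicate 10 (adjusted p = 0.0096), where all remaining brain libraries are at 0. Among 19 tested target genes, 5 were lower in unstimulated brain, including Cd83 (-7.39 ± 1.40, adjusted p = 0.0072), Ccl3 (-6.28 ± 1.27, adjusted p = 0.015) and Gadd45b (-4.16 ± 0.62, adjusted p = 0.0017), and 1 was higher, Sod2 (2.72 ± 0.68, adjusted p = 0.033). None of 15 kinases and adaptors passed, 1 of 8 ubiquitin ligases and scaffolds was lower, and 1 of 11 other brakes was higher, Usp18 (3.53 ± 0.95, adjusted p = 0.050).

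**Figure D2:**
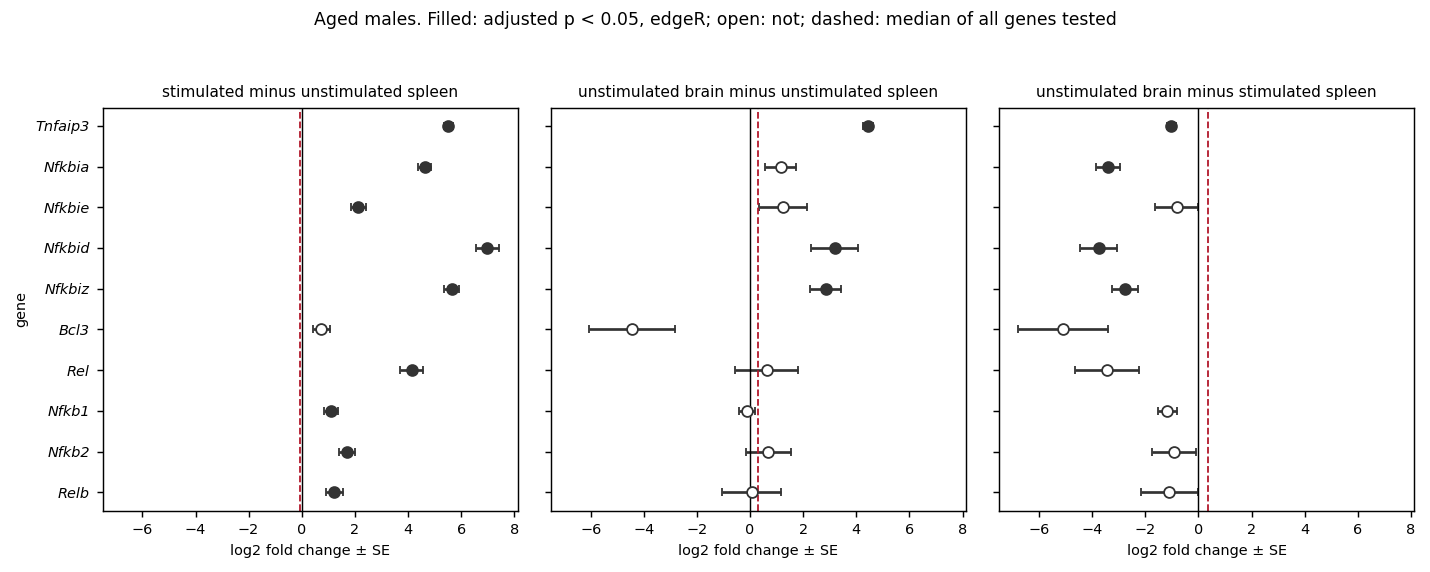
Log2 fold change ± SE of each gene in aged males, for stimulated minus unstimulated spleen (left), unstimulated brain minus unstimulated spleen (middle) and unstimulated brain minus stimulated spleen (right); filled points passed an adjusted p of 0.05 in edgeR and dashed lines are the median of all genes tested. Tnfaip3 is at 5.51, 4.43 and -1.03, while Nfkbia is at 4.62, 1.15 and -3.41; the comparisons share their spleen libraries.

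The balance among the members can be read within each library, where no scaling to a common library size enters. The length correction in TPM is made in each library, however, and does not cancel between genes. In stimulated female brain, Tnfaip3 had 1681 CPM and 122 TPM in replicate 25, against 1312 CPM and 421 TPM in replicate 26. Nfkbia had 459 CPM and 101 TPM in replicate 25, against 533 CPM and 176 TPM in replicate 26. By TPM, Tnfaip3 was the most abundant member on average in all 7 groups, but by very different margins. It made up 29.6% ± 16.1 of the summed TPM of the 10 genes in stimulated female brain (SD, n = 5), 43.2% ± 13.04 in stimulated male brain (n = 4), 82.5% ± 6.91 in unstimulated female brain (n = 5), 80.1% ± 8.41 in unstimulated aged male brain (n = 6), 69.6% ± 13.9 in unstimulated young male brain (n = 5), 53.2% ± 10.2 in stimulated spleen (n = 5) and 42.3% ± 4.02 in unstimulated spleen (n = 5). The lowest unstimulated aged brain library, at 69.5%, was above the highest library of every stimulated group and of unstimulated spleen.

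The ratio of Tnfaip3 to Nfkbia TPM also set unstimulated aged brain apart. It was 2.41, 0.818, 1.21, 2.38 and 0.272 in stimulated female brain and 1.74, 0.595, 2.57 and 5.06 in stimulated male brain. It was 14.5, 36.2, 52.4, 15.9 and 16.3 in unstimulated female brain, 8.01, 26.9 and 80.6 (lowest, median and highest of 6) in unstimulated aged male brain, and 28.4, 4.20, 9.22, 10.7 and 10.6 in unstimulated young male brain. In TPM, spleen cells kept close values in both states, at 3.16, 4.45, 5.04, 5.38 and 2.62 when stimulated and 3.43, 4.24, 4.15, 5.23 and 6.67 when unstimulated. In counts the balance moved, as Tnfaip3 was 45.7-fold higher in stimulated spleen and Nfkbia 24.5-fold. By the TPM ratio every unstimulated library of aged brain lay above every spleen library, and every stimulated brain library lay below every unstimulated aged brain library. In TPM the young brain group overlapped spleen through replicate 3, at 4.20, a library with 1691 CPM but 199 TPM of Tnfaip3. In counts the group did not overlap spleen. Replicate 3 had 17521 counts of Tnfaip3 and 1358 of Nfkbia, beside 24330 and 2880 in stimulated spleen replicate 38, the nearest spleen library. In unstimulated spleen Tnfaip3 (86.6 ± 14.1 TPM) was followed by Nfkb1 (48.7 ± 4.73 TPM) and Nfkbia (18.6 ± 1.96 TPM), whereas in stimulated spleen Tnfaip3 (1087 ± 316 TPM) was followed by Nfkbid (282 ± 145 TPM), Nfkbia (272 ± 74.0 TPM) and Nfkbiz (195 ± 61.2 TPM, SD, n = 5 each). Nfkbid and Nfkbia did not differ beyond their spread in stimulated spleen.

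**Figure D3:**
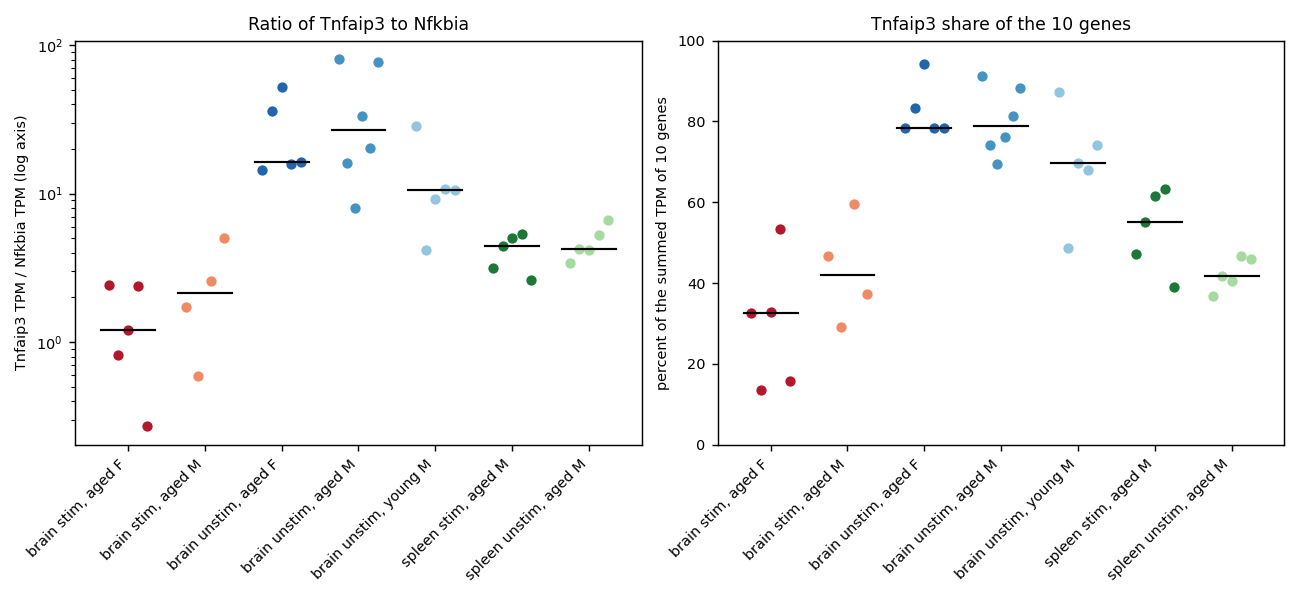
Ratio of Tnfaip3 to Nfkbia TPM (left, log axis) and share of Tnfaip3 in the summed TPM of the 10 genes (right, percent) in each library, by group; black lines are group medians. Unstimulated aged brain libraries, at ratios of 8.01 to 80.6, lie above stimulated brain, at 0.272 to 5.06, and above spleen, at 2.62 to 6.67.

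Across groups the level of Tnfaip3 in CPM fell into 3 tiers. Stimulated spleen was highest, with 3259 ± 662 CPM (SD, n = 5). Brain groups lay between, at 995 ± 479.8 CPM in stimulated females (n = 5), 737 ± 240.0 CPM in stimulated males (n = 4), 935 ± 189.6 CPM in unstimulated females (n = 5), 1720 ± 361 CPM in unstimulated aged males (n = 6) and 1524 ± 330.3 CPM in unstimulated young males (n = 5). Unstimulated spleen was lowest, with 69.9 ± 4.53 CPM (n = 5). In CPM the tiers did not overlap in any library. In deposited TPM they did, with 39.3 to 421 TPM in stimulated female and 63.9 to 371 TPM in stimulated male brain beside 68.6 to 101 TPM in unstimulated spleen, and with 392 to 1281 TPM in unstimulated aged male and 199 to 1001 TPM in unstimulated young male brain beside 724 to 1557 TPM in stimulated spleen. Within the middle tier in CPM, stimulated female brain overlapped all 4 other brain groups, and stimulated male brain overlapped unstimulated female and young male brain but not unstimulated aged male brain.

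In stimulated brain cells of aged females 3 members rose against unstimulated ones, Nfkbia by 14.1-fold, Nfkbiz by 9.65-fold and Nfkbid by 10.6-fold, and Tnfaip3 did not pass the test. Of 6305 genes tested, 1.92% were called higher (121, with 263 lower, or 49 and 487 with unscaled totals), and 9 members were tested, Bcl3 having failed the filter on low counts. The median log2 fold change was 2.26 over these 9 members and -0.41 over all genes tested. Nfkbia was at 93.7, 232, 459, 533 and 885 CPM in stimulated cells, against 42.9, 23.6, 20, 43.1 and 30.1 CPM in unstimulated cells. The groups were apart in CPM, with a log2 fold change of 3.82 ± 0.81 (adjusted p = 0.021). In TPM they overlapped, at 33.12 to 185.3 in stimulated and 14.25 to 39.19 in unstimulated cells. Nfkbiz was at 760, 199, 197, 141 and 500 CPM in stimulated cells, against 43.7, 59.2, 15.9, 21.7 and 60.2 CPM in unstimulated cells, again with no overlap in CPM (3.27 ± 0.86, adjusted p = 0.037). Its TPM ranges overlapped too, at 16.89 to 109.46 in stimulated and 4.57 to 20.75 in unstimulated cells. Nfkbid was at 29.5, 239, 616, 359 and 211 CPM in stimulated cells, against 12.7, 32.8, 34.8, 44.7 and 15.2 CPM in unstimulated cells. Here 1 stimulated library, replicate 23, lay within the unstimulated range (3.41 ± 0.96, adjusted p = 0.048).

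Tnfaip3 in the same libraries was at 674, 569, 1681, 1312 and 738 CPM in stimulated female brain, against 833, 1239, 807, 794 and 1001 CPM in unstimulated female brain. The ranges overlapped in CPM, with values of the stimulated group both above and below the others, and the log2 fold change was 0.15 ± 0.42 (adjusted p = 0.92). This value rests on the scaling, as it was -1.24 with unscaled totals. Relative to the median gene, Tnfaip3 was higher by 0.56 with TMM and 0.57 with unscaled totals. In TPM it was lower, at 39.3 to 421 in stimulated and 418 to 747 in unstimulated female brain, ranges that barely overlapped. The subunit genes were scattered. On the log2 scale Nfkb2 differed by 2.37 ± 1.30 (adjusted p = 0.43), Relb by 1.54 ± 1.94 (adjusted p = 0.79), Nfkb1 by 1.02 ± 1.40 (adjusted p = 0.81) and Rel by 0.54 ± 1.55 (adjusted p = 0.92), and Nfkbie by 2.26 ± 1.55 (adjusted p = 0.56). Rela had 0 counts in 4 of 5 stimulated female libraries and 5.36 CPM in replicate 26, against 27.8 to 92.1 CPM in unstimulated female brain, a difference that missed the threshold (-5.56 ± 1.91, adjusted p = 0.13). Aged male brain did not show it, with Rela at 57.8 to 163 CPM in stimulated and 26.15 to 119 CPM in unstimulated cells (0.91 ± 1.10, adjusted p = 0.57).

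All 3 calls in female brain were fragile. With unscaled library totals the median of all genes was -1.81, and Nfkbia (2.32, adjusted p = 0.13), Nfkbiz (1.86, adjusted p = 0.23) and Nfkbid (1.99, adjusted p = 0.24) were not called, though relative to the median gene they were higher by 4.13, 3.67 and 3.80, against 4.23, 3.68 and 3.82 with TMM. Without unstimulated replicate 13, 14, 16 or 17 or stimulated replicate 27 no member was called, and Nfkbia had adjusted p = 0.059, 0.064, 0.056, 0.061 and 0.051 in turn. Without replicate 15, 24 or 25 the 1 member called was Nfkbia, and with the libraries of hyphenated titles alone (3 stimulated) none was.

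In brain cells of aged males, stimulated against unstimulated, 1 of 9 tested members passed, Nfkbia, at 7.78-fold higher. Of 7540 genes tested, 1.75% were called higher (132), and 2743 were called lower, and the median log2 fold change was -0.16 over the members and -2.62 over all genes. Nfkbia was at 691, 364, 307 and 48.8 CPM in stimulated cells, against 15.8, 40.8 and 99.5 CPM (lowest, median and highest of 6) in unstimulated cells. Replicate 22 lay within the unstimulated range and the other 3 above it, with a log2 fold change of 2.96 ± 1.09 (adjusted p = 0.041). Nfkbid (387, 96.5, 101 and 182 CPM, against 5.97, 18.9 and 124 CPM; 2.06 ± 1.19, adjusted p = 0.20) and Nfkbiz (465, 28.1, 254 and 491 CPM, against 31.04, 105 and 318 CPM; 1.38 ± 1.08, adjusted p = 0.36) overlapped between stimulated and unstimulated cells, and Nfkbid was called with limma voom (3.0, adjusted p = 0.036). Tnfaip3 was at 1060, 652, 490 and 745 CPM in stimulated cells, all below the 1366, 1583 and 2268 CPM (lowest, median and highest) of unstimulated cells. Its log2 fold change of -1.09 ± 0.62 did not pass (adjusted p = 0.19), except in the fit of all 35 libraries (-1.22, adjusted p = 0.040), and relative to the median gene it was higher by 1.53.

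The remaining members in male brain gave values with wide errors. Nfkb1 had 73.2, 69.9, 9.28 and 0 CPM in stimulated cells, below the 73.6 to 145 CPM of unstimulated cells, with a log2 fold change of -1.32 ± 1.34 (adjusted p = 0.49). Rel was at 56.2 CPM in replicate 19 and at 0 to 5.98 CPM in the other 3 stimulated libraries, against 0.0760 to 117 CPM in unstimulated cells (-0.99 ± 1.82, adjusted p = 0.72). Nfkb2 (-0.16 ± 1.47, adjusted p = 0.95), Relb (-1.32 ± 1.91, adjusted p = 0.64) and Nfkbie (0.33 ± 1.64, adjusted p = 0.90) each had 0 counts in at least 1 stimulated library. The Nfkbia call was lost in 9 of 19 alternatives: with unscaled totals (2.57, adjusted p = 0.072), without a filter on low counts (2.85, adjusted p = 0.12), without unstimulated replicate 7 (2.90, adjusted p = 0.082), 10 (2.89, adjusted p = 0.080), 11 (3.04, adjusted p = 0.073) or 12 (2.82, adjusted p = 0.083), and without stimulated replicate 19 (2.39, adjusted p = 0.084), 20 (2.90, adjusted p = 0.056) or 21 (2.95, adjusted p = 0.051).

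A few target genes of the pathway were higher in stimulated brain in both sexes. In females 4 of 14 tested targets rose and none fell, including Ccl3 (7.79 ± 1.42, adjusted p = 0.011), Tnf (6.15 ± 1.19, adjusted p = 0.016) and Gadd45b (4.36 ± 1.21, adjusted p = 0.045). In males 2 of 16 rose, Ccl3 (6.30 ± 1.43, adjusted p = 0.0069) and Tnf (4.37 ± 1.06, adjusted p = 0.0083), and Bcl2a1d fell, with 0 counts in all 4 stimulated libraries. Upstream genes were called lower in stimulated male brain in 5 of 14 kinases and adaptors, 4 of 7 ubiquitin ligases and scaffolds and 4 of 10 other brakes. As 36.4% of all 7540 genes tested were called lower there, these counts are no result about the lists. Ikbkg, Tab3, Chuk, Birc2, Rbck1 and Usp18 had 0 counts in all 4 stimulated libraries. In females none of 12 kinases and adaptors, 1 of 7 ubiquitin ligases and scaffolds (Sharpin, lower, with 0 counts in all 5 stimulated libraries) and none of 10 other brakes passed. The choroid plexus markers Ttr and Folr1, of which Folr1 was at 0 outside unstimulated aged male brain, summed to 114 to 665 CPM in stimulated female and 0 to 1151 CPM in stimulated male brain, against 0 to 5.76 CPM in unstimulated female and 1.78 to 617 CPM in unstimulated aged male brain; microglia markers summed to 0 to 251 and 0 to 77.7 CPM in stimulated female and male brain, against 4.42 to 117 and 9.31 to 464 CPM in unstimulated. The 3 oligodendrocyte markers, of which Mog was at 0 in every group, summed to 157 to 374 CPM in stimulated female brain, against 27.4 to 69.3 CPM in unstimulated female brain, with no overlap. In males they summed to 54.2 to 313 CPM in stimulated brain, against 38.6 to 273 CPM in unstimulated brain, which overlapped. Spleen cells had 46.6 to 71.0 CPM of the same list when stimulated and 36.3 to 45.2 CPM when unstimulated, so values of that size are not particular to brain. The 4 astrocyte markers summed to 4.50 to 111 CPM in stimulated female brain, with Aqp4 at 0, against 0 to 1.16 CPM in unstimulated female brain, with Gfap at 0 and no overlap. In males they summed to 0.464 to 29.01 CPM in stimulated brain, where 1 of 4 was above 0, against 0.0485 to 12.5 CPM in unstimulated brain, which overlapped. Their part in these values, and that of the mitochondrial share, was not tested.

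Stimulated brain and stimulated spleen cells of aged males were then set side by side. Tnfaip3 and Bcl3 were lower in brain and no member was higher. Of 9135 genes tested, 46.7% were called lower, so 2 of 10 members is a smaller share than that of all genes. The median log2 fold change was -1.72 over the members and -3.02 over all genes, and -1.56 over the members with Bcl3 at its bound given below. Tnfaip3 was at 1060, 652, 490 and 745 CPM in stimulated brain, against 2794, 4063, 2551, 3045 and 3843 CPM in stimulated spleen, with no overlap (-1.94 ± 0.37, adjusted p = 0.0016). Nfkbia was at 691, 364, 307 and 48.8 CPM in stimulated brain, against 438, 579.6, 302, 361 and 702 CPM in stimulated spleen. Its ranges overlapped, and the log2 fold change was -0.25 ± 0.71 (adjusted p = 0.81), an estimate too wide to show that the tissues were alike. Bcl3 had 0 counts in all 4 brain libraries and 4.89 ± 0.920 CPM in stimulated spleen (SD, n = 5). Set at 3 counts in each library, the limit that a count of 0 allows for counting error alone, brain was at least 3.065-fold lower (adjusted p = 0.00043). Rel was at 0 to 56.2 CPM in stimulated brain and 147 to 622 CPM in stimulated spleen and missed the threshold (-4.20 ± 1.64, adjusted p = 0.061), but it passed without brain replicate 19 (-7.07, adjusted p = 0.0054) or 20 (-3.82, adjusted p = 0.043), with DESeq2 (-4.26, adjusted p = 0.00084), with limma voom (-6.49, adjusted p = 0.007), in the fit of all 35 libraries (-4.37, adjusted p = 0.038) and with unscaled totals (-4.65, adjusted p = 0.042). Nfkbid was called lower without replicate 19 (-2.13, adjusted p = 0.031), with DESeq2 (-1.37, adjusted p = 0.022) and with unscaled totals (-1.99, adjusted p = 0.037), against -1.50 ± 0.70 (adjusted p = 0.11) with all libraries, and Relb was called lower with limma voom (-4.52, adjusted p = 0.029) and without replicate 20 (adjusted p = 0.00065), where all remaining brain libraries are at 0. Nfkb1 was at 73.2, 69.9, 9.28 and 0 CPM in stimulated brain, against 193, 239, 126, 128 and 367 CPM in stimulated spleen. Its groups did not overlap, but the log2 fold change of -2.29 ± 1.31 missed the threshold (adjusted p = 0.19), and it was called lower with DESeq2 (-2.25, adjusted p = 0.041) and limma voom (-4.02, adjusted p = 0.016).

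The response to stimulation itself was tested between tissues as the change in aged male brain minus the change in aged male spleen. It was lower in brain for 4 of 10 members, close to the 35.7% of 12117 genes called lower, so the number of members called is no result about them. The size for Tnfaip3, -6.73 ± 0.56 (adjusted p = 8.2e-08), lay further down than the median gene, at -4.04, and was called in all 29 alternatives. By fold change Tnfaip3 ranked 7674 from the highest among the 12117 genes tested, so many genes lay further down still. The Tnfaip3 value combines a change of -1.09 in brain with 5.51 in spleen. Nfkbid had -5.07 ± 1.14 (adjusted p = 0.0015) and Nfkbiz -4.43 ± 1.02 (adjusted p = 0.0019), both called in all 29 alternatives and both near the median gene. Rel had -5.13 ± 1.94 (adjusted p = 0.041), a call lost in 17 of 29 alternatives, where adjusted p rose as far as 0.13. Nfkbia was not called lower (-1.76 ± 0.90, adjusted p = 0.12) except without stimulated brain replicate 19 (-2.34, adjusted p = 0.036), and relative to the median gene it was 2.28 higher. Nfkb1 was not called with all libraries (-2.51 ± 1.14, adjusted p = 0.085) and was called without stimulated brain replicate 19 (-3.06, adjusted p = 0.036), 20 (-3.0, adjusted p = 0.046) or 22 (-2.13, adjusted p = 0.044) or with limma voom (-3.72, adjusted p = 0.021), and Relb without replicate 20 (adjusted p = 0.0026). Without stimulated brain replicates 20 and 22, the 2 shallowest libraries of that group, 5 members were called, Tnfaip3 at -6.45 (adjusted p = 1e-08).

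**Figure D4:**
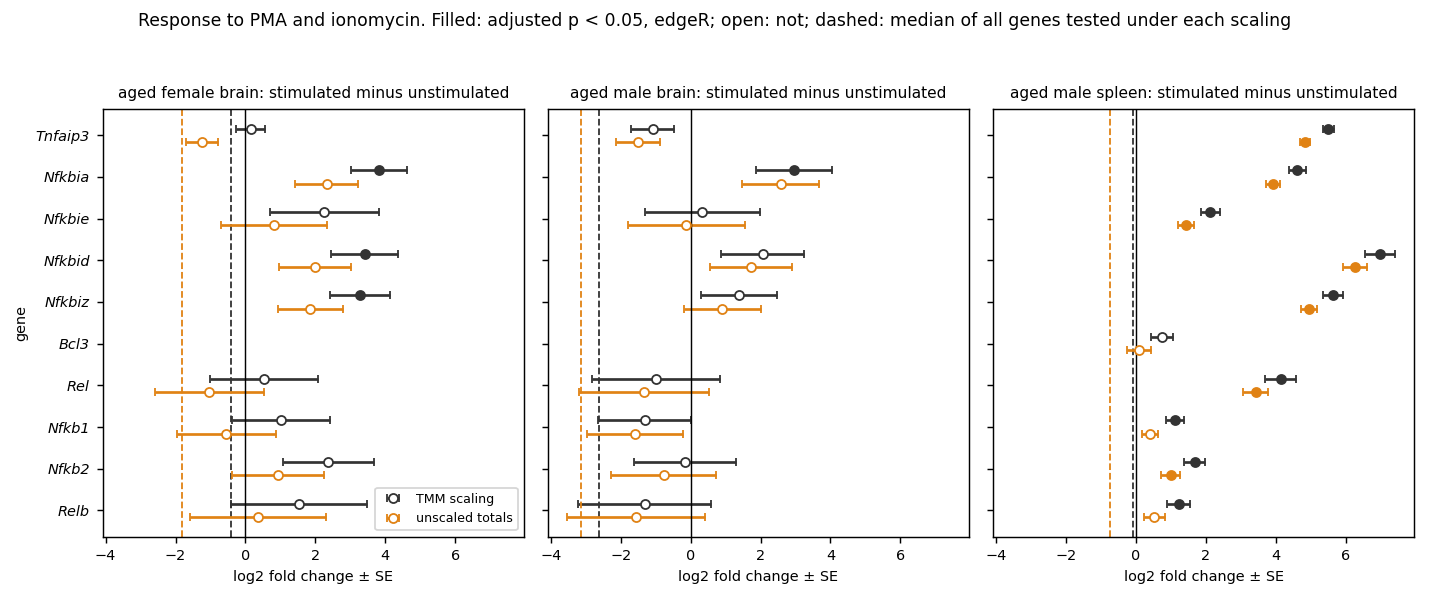
Log2 fold change ± SE on stimulation in aged female brain (left), aged male brain (middle) and aged male spleen (right), with TMM scaling and with unscaled library totals; filled points passed an adjusted p of 0.05 in edgeR and dashed lines are the median of all genes tested under each scaling. With TMM, Tnfaip3 is at 0.15 in female brain and -1.09 in male brain, against 5.51 in spleen, whereas Nfkbia is at 3.82, 2.96 and 4.62. No brain point is filled with unscaled totals.

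No difference with age was detectable among the members in unstimulated male brain. None of the 9 tested members passed edgeR, DESeq2 or limma voom, and none had an unadjusted p under 0.05. In edgeR 0% of 8068 genes were called, 374 genes had an unadjusted p under 0.05, and DESeq2 called 72 genes and limma voom 0. Tnfaip3 was at 1366, 1583 and 2268 CPM in aged males (lowest, median and highest of 6), against 1813, 1691, 1008, 1723 and 1385 CPM in young males, overlapping groups with a log2 fold change of 0.19 ± 0.22 (adjusted p = 0.99). Nfkbia was at 15.8, 40.8 and 99.5 CPM in aged males, against 79.2, 131, 61.0, 89.9 and 88.5 CPM in young males. The aged values were mostly lower but reached into the young range (-0.87 ± 0.76, adjusted p = 0.99). Nfkbiz had the smallest unadjusted p of the members, 0.079, with a log2 fold change of 1.40 ± 0.76. The other 6 tested members had log2 fold changes of -0.91 to 1.66 with standard errors of 0.63 to 1.59, which leaves room for sizeable differences of either sign.

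Between aged females and aged males, both unstimulated brain, no member passed either. Of 8691 genes, 0.15% were called in edgeR (13, all lower in females), and 365 had an unadjusted p under 0.05. Of the 9 tested members 2 had such a p, Tnfaip3 and Nfkbiz, while DESeq2 and limma voom called no member. Tnfaip3 was at 833, 1239, 807, 794 and 1001 CPM in females, against 1366, 1583 and 2268 CPM in males (lowest, median and highest), groups that did not overlap in TMM-scaled CPM, with a log2 fold change of -0.72 ± 0.20 (adjusted p = 0.43). With unscaled totals it was -0.39 ± 0.20. In TPM the groups overlapped, at 418 to 747 in females and 392 to 1281 in males. Nfkbiz was at 43.7, 59.2, 15.9, 21.7 and 60.2 CPM in females, against 31.04, 105 and 318 CPM in males, which overlapped (-1.57 ± 0.69, adjusted p = 1). All 9 tested members had negative fold changes, from -2.04 to -0.43, and the median was -0.76 over the members and -0.28 over all genes. The share of all genes with a negative fold change is not given here.

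In brain, members were nearly absent from some libraries and abundant in others of the same group. Over all genes too, fewer had a count in brain libraries, 2271 to 12706 against 13729 to 15174 in spleen. The values below are for the members only, so they show no trait particular to them. Values of at most 5 counts numbered 8 of 50 in stimulated female brain, 13 of 40 in stimulated male brain, 7 of 50 in unstimulated female brain, 9 of 60 in unstimulated aged male brain and 8 of 50 in unstimulated young male brain, and there were none in spleen. The median coefficient of variation over the 10 members was 81.4%, 74.9%, 68.9%, 91.0% and 81.2% in these brain groups in the same order, 41.8% in stimulated spleen and 16.8% in unstimulated spleen. Tnfaip3, Nfkbia, Nfkbid and Nfkbiz had more than 5 counts in every brain library. In unstimulated aged male brain the coefficient of variation was 21% for Tnfaip3, at 19293 to 54334 counts, and 29.7% for Nfkb1, at 1231 to 2582 counts. Nfkbie in the same group had 30.2 to 44.9 CPM in 5 libraries and 0.118 CPM, a single count, in replicate 8, and Nfkb2 ran from 1.16 to 107 CPM.

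Genes whose pattern over the 7 group means was most like that of the members were ranked by the root mean square difference of centred log2 CPM among 4210 candidates. Closest to the mean of the 10 members were Zfp36l1 at 0.47, Rilpl2 at 0.47, Zswim4 at 0.51, Mapkapk2 at 0.52 and Icam1 at 0.53. Closest to Tnfaip3 were Vps37b at 0.40, Bhlhe40 at 0.48 and Ppp1r15a at 0.69, and closest to Nfkbia were Kdm6b at 0.53, Ier5 at 0.60 and Myc at 0.66. The lists do not share a gene, and they are given as descriptions over 7 groups.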

How the data were processed

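RNA from 35 samples of sorted CD8 T cells in 7 groups was sequenced as total RNA on an Illumina platform, per the labels' protocols. Bowtie2 2.2.0, RSEM 1.2.12 and mm10 are named in the submitters' processing notes. Neither an annotation release nor the use of strand in counting is given in the sources used here. The deposited series table held whole-number counts per gene, and the deposited sample files held RSEM expected counts, TPM and FPKM, per the file headers; FPKM was not used.

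Counts were fitted with edgeR 4.0.16 (quasi-likelihood, filterByExpr with a minimum count of 10, TMM) in R 4.3.3, on only the groups compared, with Benjamini-Hochberg adjustment over all genes tested and a threshold of 0.05. The standard error of each edgeR log2 fold change was derived from the test, as its absolute value divided by the square root of the F statistic. Expected counts were rounded for 1 alternative. CPM were scaled by TMM over all libraries, and TPM are as deposited. DESeq2 1.42.0 and limma 3.58.1 served as alternatives. The steps were tested on simulated data. Groups came from sample titles. The members, gene lists and marker lists were chosen with earlier results of these data known, the other pathway genes named being up to 3 per list and direction among those called, by fold change, with a mean of at least 5 CPM. Library totals ran from 1156594 to 24973886 counts.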

Additional observations from a re-analysis of the deposited data

Results flagged for a closer look

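Among 70 combinations of a member and a group, 11 held a library far from all others of its group by Dixon's test at the 95% level. Chance alone marks about 1 in 20 where values are normally distributed. That rate need not hold for these CPM, and a rate over all genes is not given here. A lone library above 0 is always marked, as were Relb in stimulated male replicate 20 and Bcl3 in unstimulated aged male replicate 10. All 11 were in brain. In stimulated female brain they were Nfkb1 in replicate 24, at 476.7 CPM with the next at 82.57, and Relb in replicate 26, at 48.61 CPM with the next at 4.896. In stimulated male brain they were Rel in replicate 19, at 56.16 CPM with the next at 5.978, Nfkb2 in replicate 20, at 0 CPM with the next at 44.83, and Relb in replicate 20, at 18.07 CPM with the others at 0. In unstimulated aged male brain Nfkbie was at 0.1175 CPM in replicate 8 with the next at 30.19, and Bcl3 was at 0.8082 CPM in replicate 10 with the others at 0. In unstimulated young male brain Nfkb1 was at 375.1 CPM in replicate 3 with the next at 98.1, Relb at 37.36 CPM in replicate 5 with the next at 10.93, Nfkbie at 40.17 CPM in replicate 2 with the next at 6.34, and Bcl3 at 7.933 CPM in replicate 5 with the next at 0.2895. None of them was Tnfaip3, Nfkbia, Nfkbid or Nfkbiz.

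The response to stimulation differed between aged male brain and aged male spleen for 4 members, by the test of the difference itself. The difference, brain minus spleen on the log2 scale, was -6.73 for Tnfaip3, -5.07 for Nfkbid, -4.43 for Nfkbiz and -5.13 for Rel, beside a median of -4.04 over all genes tested. As 35.7% of 12117 genes tested were called lower in this contrast, 4 of 10 is no result about the members, and the Rel call was lost in 17 of 29 alternatives. The set of titles, the mitochondrial share of counts and the depth moved with stimulation in male brain, and their part in these values was not tested.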

How the results depend on the processing

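No single-member value changed direction among those called, and of 1714 such values under alternatives 1602 stayed on their side of the threshold, 80 lost it and 32 gained it. The number of members called, 9 for spleen stimulation, was 4 in the fit of all 35 libraries. For male brain stimulation, 1 was called, against 2 with limma voom, 2 with all 35 libraries, 0 without a filter on low counts, 0 with unscaled library totals and 0 to 1 with 1 library left out. For female brain stimulation, 3 were called, against 0 without the filter, 0 with hyphenated titles alone, 0 with unscaled totals and 0 to 2 with 1 library left out. For stimulated brain against stimulated spleen, 2 were called, against 5 with DESeq2, 5 with limma voom, 4 with unscaled totals and 2 to 4 with 1 library left out. The cause was not tested, beyond the smaller number of samples where libraries were left out.

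Over all genes, spleen stimulation called 2080, against 53 with all 35 libraries and 4900 with unscaled totals (523 higher and 4377 lower, against 1400 and 680). Unstimulated brain against unstimulated spleen called 814 (370 higher and 444 lower), against 1615 with limma voom and 1677 without the filter, and unscaled totals split 139 higher and 516 lower. Against stimulated spleen 381 were called, and 899 with DESeq2, 716 with limma voom and 579 with all 35 libraries. Age called 0, and 72 with DESeq2, 25 without the filter, 1 with all 35 libraries and 1 without replicate 12. Sex called 13, and 2 to 44 under alternatives. Male brain stimulation called 2875, and 5018 with all 35 libraries and 1161 without replicates 20 and 22. Female brain stimulation called 384, and 49 to 596 with 1 library left out, 878 with DESeq2, 1360 with limma voom, 704 without the filter, 2549 with all 35 libraries and 135 with hyphenated titles alone. The tissue difference called 4577, and 2770 with limma voom. Unscaled totals, and leaving out replicates 20 and 22, were chosen after seeing the data. No paired analysis was possible because no replicate number is shared between groups.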
